A study of Mus musculus with 6 samples.

Results

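The CD300 paired receptors were followed in RNA sequencing of mouse bone marrow-derived macrophages. The 7 members were taken by gene name from the deposited table of 31883 genes. They were Cd300a and Cd300lf, which carry inhibitory signals, Cd300c2, Cd300ld, Cd300lb and Cd300e, which carry activating signals, and Cd300lg, which belongs to neither kind. The table holds 5 further genes named Cd300 (Cd300c and Cd300ld2 to Cd300ld5), which are described beside the members. The 6 libraries comprise 3 labelled CD22 knockout (a global deletion) and 3 labelled wild type, all on the C57Bl/6 strain. Marrow cells of either genotype were grown in medium conditioned by L929 fibroblasts, a source of macrophage growth factor, and then held for 48 hours with IL-4 at 20 ng/mL in 25% conditioned medium. The sources used here state no age of the mice. Nothing in the labels ties a library to an animal of its own, so the spread behind each p-value is that of these libraries and may be technical.

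CD300 proteins are receptors of myeloid cells with a variable-type immunoglobulin domain outside the cell. Several bind lipids such as phosphatidylserine or ceramide, which dying cells expose. Inhibitory members have a long tail with tyrosine motifs (immunoreceptor tyrosine-based inhibitory motifs, ITIMs) that recruit the phosphatases SHP-1 and SHP-2. Activating members have a short tail and signal through the adaptors DAP12 (gene Tyrobp) or the Fc receptor gamma chain (gene Fcer1g).

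In GRCm38 (GENCODE M21), 11 of the 12 Cd300 genes lie in one cluster of 244 kb on chromosome 11. Cd300a is at chr11:114890041-114904654 on the plus strand. The other genes of the cluster are on the minus strand and include Cd300lb at chr11:114922781-114934386, Cd300ld at chr11:114982274-114989922, Cd300c2 at chr11:114996721-115001880, Cd300e at chr11:115051917-115062177 and Cd300lf at chr11:115116214-115133992. Cd300lg lies 12.8 Mb away at chr11:102041509-102055620 on the plus strand.

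Inhibitory and activating members share stretches of coding sequence, which are shown because they define the pairs. A read that lies wholly within such a stretch also cannot be assigned to 1 gene by its own bases. The longest exact run common to Cd300a and Cd300c2 was 140 bases. It runs from exon 2 into exon 3 of both genes, at chr11:114893456-114894658 on the plus strand in Cd300a and at chr11:114998335-115000767 on the minus strand in Cd300c2, where the coordinates include the intron. The longest run common to Cd300lf and Cd300ld was 134 bases, all within exon 2, at chr11:115126150-115126283 in Cd300lf and at chr11:114987342-114987475 in Cd300ld, both on the minus strand. All other pairs of an inhibitory with an activating member shared at most 22 bases.
Cd300a and Cd300c2: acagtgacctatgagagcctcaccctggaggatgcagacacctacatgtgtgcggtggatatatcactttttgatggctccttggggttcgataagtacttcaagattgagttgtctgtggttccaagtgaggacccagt
Cd300lf and Cd300ld: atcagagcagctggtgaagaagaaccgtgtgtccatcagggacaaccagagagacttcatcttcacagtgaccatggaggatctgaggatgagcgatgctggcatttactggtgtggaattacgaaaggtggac

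Coding stretches that fit an ITIM were looked up next, since this motif separates the kinds. The pattern was valine, leucine, isoleucine or serine, any residue, tyrosine, any 2 residues, and leucine, isoleucine or valine, read in frame from the longest coding transcript of each gene. Cd300a had 3 matches, of which those at codons 262 and 274 of 318 lie near its end. Cd300lf had 2, at codons 241 and 289 of 337. The tyrosine codon is in capitals below, and the sites lie at chr11:114899846-114899863 and chr11:114901147-114901164 on the plus strand, and at chr11:115117648-115117665 and chr11:115117112-115117129 on the minus strand.
Cd300a, codon 262: gtggaaTATagcacattg
Cd300a, codon 274: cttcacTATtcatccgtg
Cd300lf, codon 241: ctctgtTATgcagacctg
Cd300lf, codon 289: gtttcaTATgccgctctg

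Pattern matches also occurred outside those tails. The match of Cd300a at codon 100 and the match of Cd300c2 at codon 97 are the same bases and lie inside the 140-base run. Cd300c2 had its other match at codon 187 of 228, and Cd300ld had its only match at codon 177 of 221. Cd300lb, Cd300e and Cd300lg had 0. A match is a match of letters and does not show a working motif.

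How far the sequence sets the certainty of each value was measured as the share of 100-base windows of a gene's GENCODE transcripts that occur in transcripts of another gene. The share was 3.23% for Cd300c2, 1.37% for Cd300ld, 0.849% for Cd300a and 0.644% for Cd300lf, and it was 0 for Cd300lb, Cd300e and Cd300lg. With 50-base windows it was 7.16% for Cd300c2, 3.89% for Cd300ld, 3.18% for Cd300a and 2.29% for Cd300lf, and again 0 for the other members. At either length most windows of each member were its own. The share does not weigh abundance, and windows are pooled over all transcripts of a gene. Of the 50-base windows of Cd300lf, 1.80% also occur in Cd300ld, which stood 48.1 to 75.5 times as high in FPKM. Reads of the shared run could therefore weigh on the Cd300lf value, by an amount that was not tested. Among the further genes, the share of 100-base windows was 100% for Cd300ld5, 86.7% for Cd300ld4, 80.9% for Cd300ld3 and 16.2% for Cd300ld2 (31.0% with 50-base windows), while it was 0 for Cd300c at both lengths. The sources used here do not say how reads that fit several genes were assigned, so the values of Cd300ld3, Cd300ld4 and Cd300ld5 are uncertain as single genes.

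**Figure D1:**
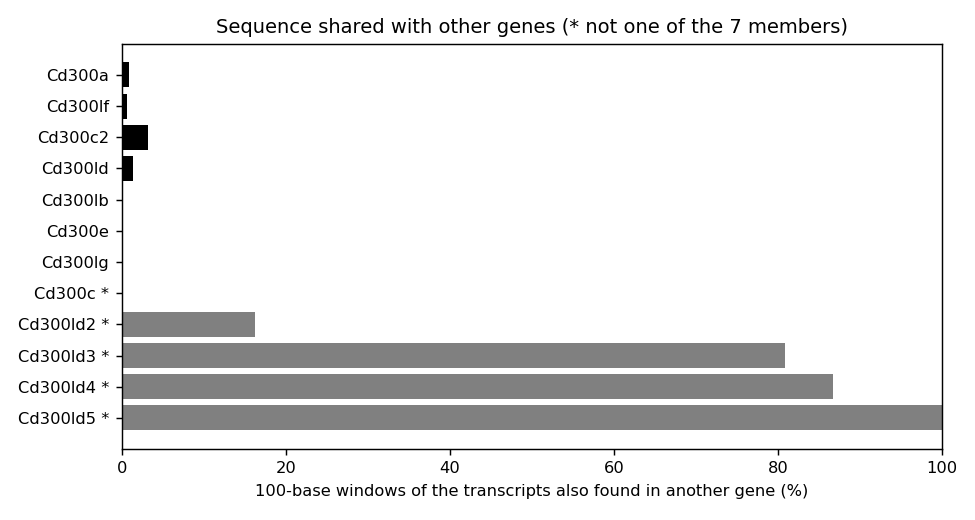
Horizontal bars give, for each Cd300 gene, the percentage of 100-base windows of its transcripts also found in another gene; black bars are the 7 members. The members are at 3.23% or less, while Cd300ld3, Cd300ld4 and Cd300ld5 are at 80.9% to 100%.

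The values are FPKM, fragment counts scaled by transcript length and by the library's mapped fragments, so genes can be compared in level. Read depth is unknown, and FPKM totals ran from 314441 to 348332 per library. Cd22 itself did not check the labels. It was at 8.85, 8.21 and 9.53 FPKM in the libraries labelled CD22 knockout, against 8.95, 9.36 and 10.6 FPKM in the wild type libraries, which overlap (limma, adjusted p = 0.695), and gene-level values do not separate a deleted exon. All 8 macrophage markers were at 1 FPKM or more in every library. Defining markers of neutrophils (Camp, Ly6g) and mast cells (Fcer1a, Ms4a2, Tpsb2), which also carry CD300 receptors, were listed at 0 in every library, and all 10 neutrophil and 7 mast cell markers summed to at most 1.82 and 0.356 FPKM. Other blood cell markers were not all so low. The 6 monocyte markers summed to 12.4 to 20.2 FPKM per library, most of it Ccr2 (mean 11.5 FPKM). Sums were 7.24 to 9.75 FPKM for the 6 B cell markers and 0.655 to 1.03 FPKM for the 6 dendritic cell markers. Wild type library 1 stood apart in skeletal muscle markers and wild type library 2 in epididymis markers. The 7 adipocyte markers summed to 3.62 to 12.3 FPKM in the knockout-labelled libraries, against 45.3 in wild type library 1, 13.2 in library 2 and 17.1 in library 3. The groups did not overlap in this sum. Leaving out wild type libraries 1 and 2, as is done below, keeps library 3, whose adipocyte sum was above that of library 2. The epididymis markers found in the table (5 of 7) summed to at most 0.0476 FPKM in the knockout-labelled libraries, against 5.44 in wild type library 2 and at most 0.0329 in the other wild type libraries. The 6 skeletal muscle markers summed to at most 0.237 FPKM in the knockout-labelled libraries, against 4.70 in wild type library 1.

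The members covered a wide range of levels. Cd300ld, Cd300lb and Cd300c2 ranked 128, 194 and 198 by mean FPKM among the 10777 genes tested, which are those reaching 1 FPKM in 3 or more libraries. Cd300a ranked 1844, Cd300lf 7083 and Cd300lg 10033, and Cd300e did not pass the filter. In the knockout-labelled libraries the order was Cd300ld (mean 239 FPKM), Cd300c2 (185), Cd300lb (177), Cd300a (22.4), Cd300lf (3.71), Cd300lg (1.35) and Cd300e (0.494). Ranges of Cd300ld and Cd300c2 overlapped there, as did those of Cd300c2 and Cd300lb. In the wild type libraries it was Cd300ld (285 FPKM), Cd300lb (197), Cd300c2 (184), Cd300a (23.9), Cd300lf (4.49), Cd300lg (1.48) and Cd300e (0.448), and only Cd300lb and Cd300c2 overlapped. From Cd300a down, no neighbours in the order overlapped in either group.

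**Figure D2:**
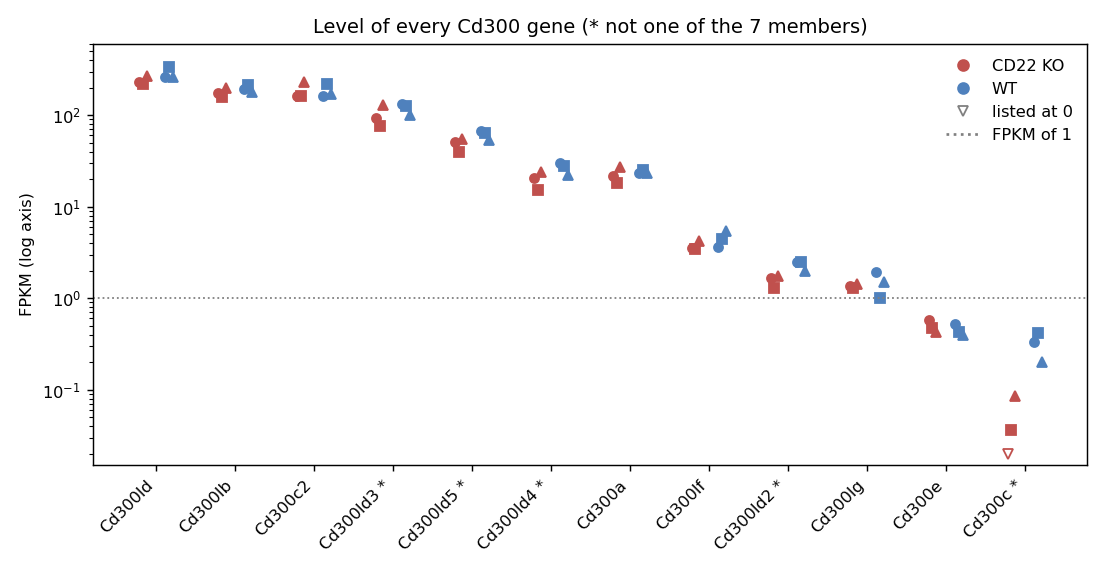
FPKM on a log axis is plotted for each Cd300 gene in every library, with libraries labelled CD22 knockout in red on the left and wild type in blue on the right; circles, squares and triangles are libraries 1, 2 and 3, an open triangle marks a value listed at 0, and the dotted line is an FPKM of 1. Cd300ld, Cd300lb and Cd300c2 lie at 159 FPKM or more, both inhibitory members at 27.2 FPKM or less, and Cd300e below 1.

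Whether any member differed between the genotypes was the main comparison. Limma, fitted over all 10777 genes, called 0 of the 6 members tested at an adjusted p below 0.05, where it called 0.408% of all genes. At an unadjusted p below 0.05 it had 0 of 6 members, against 11.0% of all genes. In all 7 members the groups overlapped, while they did not overlap in 17.1% of all genes. Of the 6 members, 5 had a log2 fold change below 0, as did 57.9% of all genes, and their median was -0.13 against -0.02 over all genes. Without wild type libraries 1 and 2, limma again called 0 of 6 members, 5 of them had a log2 fold change below 0, and 1 had an unadjusted p below 0.05, as did 6.00% of all genes in that fit. In bulk RNA, fewer cells of a type and less RNA per cell cannot be told apart.

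Among the inhibitory members, Cd300a, a receptor for phosphatidylserine and phosphatidylethanolamine that restrains mast cells and phagocytes, had 21.7, 18.3 and 27.2 FPKM in the knockout-labelled libraries, against 23.4, 24.9 and 23.3 FPKM in wild type. The wild type values fall inside the wider knockout range. Its means were 22.4 ± 4.51 FPKM in knockout-labelled and 23.9 ± 0.912 FPKM in wild type libraries (SD, n = 3 each), with a log2 fold change of -0.11 (95% interval -0.38 to 0.17, limma, adjusted p = 0.809).

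Cd300lf, a receptor for ceramide and phosphatidylserine that in mice also serves as the entry receptor of murine norovirus and has been found to associate with the IL-4 receptor, had 3.53, 3.42 and 4.16 FPKM in the knockout-labelled libraries, against 3.64, 4.41 and 5.44 FPKM in wild type. Wild type library 3 was the highest, and wild type library 1 lay among the knockout-labelled values. The log2 fold change was -0.21 (95% interval -0.48 to 0.05, limma, adjusted p = 0.547). Without wild type libraries 1 and 2 it was -0.45 (limma, adjusted p = 0.52), with the lone wild type library assumed to vary like the others. Rab37 overlaps Cd300lf on the opposite strand, and it was at no more than 0.0349 FPKM in any library.

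Among the activating members, Cd300ld, which signals through the Fc receptor gamma chain, had 230, 218 and 269 FPKM in the knockout-labelled libraries, against 262, 333 and 261 FPKM in wild type. Library 3 of the knockout-labelled group lay above 2 of the wild type libraries. Its means were 239 ± 26.7 FPKM in knockout-labelled and 285 ± 41.0 FPKM in wild type libraries (SD, n = 3 each), which gave the lowest log2 fold change of the members tested, -0.25 (95% interval -0.52 to 0.01, limma, adjusted p = 0.468). In the authors' deposited table Cd300ld had a p of 0.0362 and a q of 0.635.

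Cd300c2, which pairs with DAP12 and the Fc receptor gamma chain, had 164, 160 and 232 FPKM in the knockout-labelled libraries, against 161, 221 and 170 FPKM in wild type. Each group had 1 high library and 2 low ones, and the means were 185 ± 40.7 FPKM in knockout-labelled and 184 ± 32.4 FPKM in wild type libraries (SD, n = 3 each). The log2 fold change was 0.00, but its 95% interval of -0.40 to 0.40 leaves room for differences of either sign (limma, adjusted p = 0.998).

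Cd300lb, which pairs with DAP12, had 176, 159 and 196 FPKM in the knockout-labelled libraries, against 196, 216 and 181 FPKM in wild type. The groups overlapped through knockout-labelled library 3 and wild type libraries 1 and 3, and the log2 fold change was -0.16 (95% interval -0.38 to 0.07, limma, adjusted p = 0.620). Cd300e, a DAP12 partner known from human monocytes, was the lowest member at 0.580, 0.471 and 0.431 FPKM in the knockout-labelled libraries, against 0.525, 0.424 and 0.396 FPKM in wild type. It was under the filter on low values and was not tested.

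Cd300lg, known as nepmucin and found on endothelium, where it binds lymphocytes, had 1.35, 1.30 and 1.42 FPKM in the knockout-labelled libraries, against 1.93, 1.01 and 1.51 FPKM in wild type. The knockout-labelled values lay close together and inside the wild type range (log2 fold change -0.06, 95% interval -0.34 to 0.22, limma, adjusted p = 0.901). Wild type library 1, the highest, also held the highest sums of endothelial markers (10 markers, 2.87 to 4.41 FPKM in the knockout-labelled libraries, against 3.02 to 4.84 FPKM in wild type) and of adipocyte markers. Knockout-labelled library 3, the highest of its group in Cd300lg, held the lowest endothelial sum, 2.87 FPKM. Single endothelial markers differed in their highest library. Pecam1, which made up 54.1% of the mean sum, was highest in knockout-labelled library 1 (2.97 FPKM, against 2.38 in wild type library 1), and Kdr in wild type library 3 (1.44 FPKM). Kdr was lower in the knockout-labelled libraries (0.797, 0.637 and 0.660 FPKM, against 1.31, 1.02 and 1.44 in wild type) without overlap (limma, adjusted p = 0.177). Cdh5, Esam and Cldn5, all below 1 FPKM, were also lower there without overlap. The groups overlapped in the remaining endothelial markers. Emcn was listed at 0 in every library but wild type library 1 (0.0342 FPKM). The part of other cells in the Cd300lg level was not tested.

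**Figure D3:**
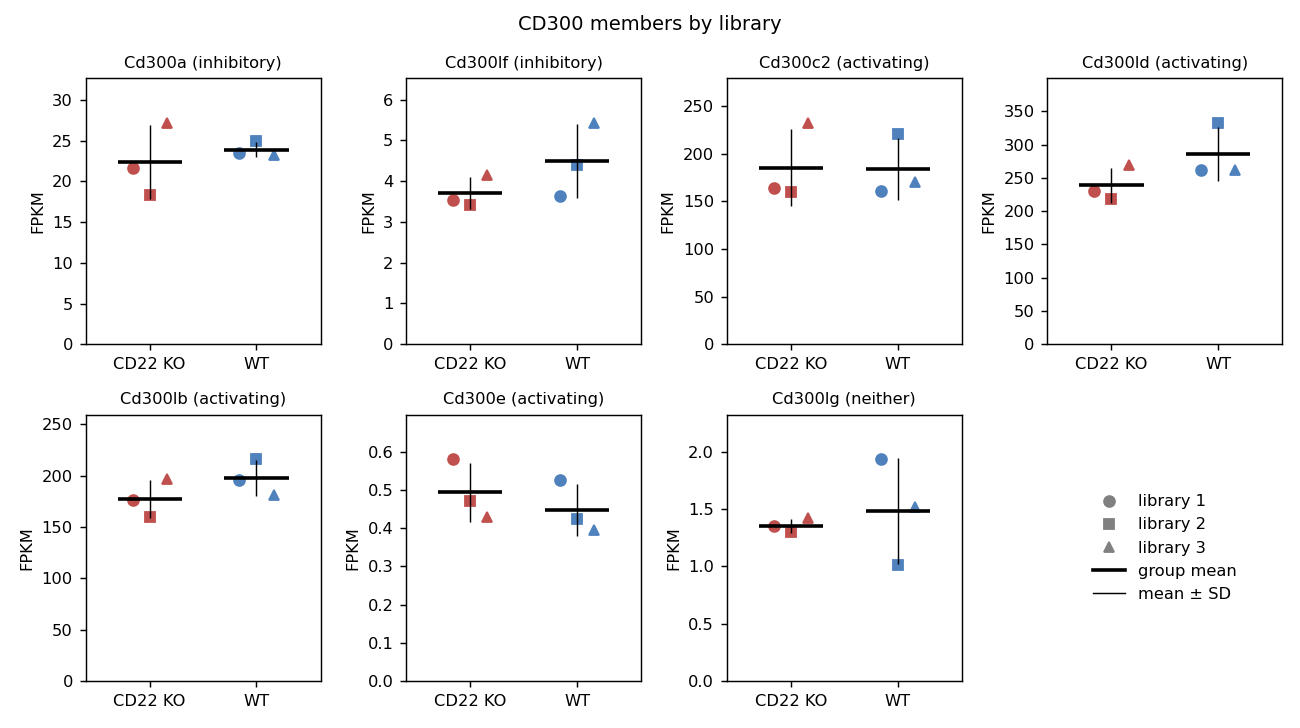
Each panel plots the FPKM of 1 member on a linear axis from 0, with libraries labelled CD22 knockout in red on the left and wild type in blue on the right; symbols are libraries 1 to 3, the thick bar is the group mean and the thin line the SD (n = 3). The groups overlap in every panel, and in Cd300a, Cd300lf, Cd300c2, Cd300ld, Cd300lb and Cd300lg the triangle of knockout-labelled library 3 is the highest red point.

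Within the knockout-labelled group the tested members shared one order of libraries at its ends. All 6 tested members were highest in knockout-labelled library 3 and lowest in knockout-labelled library 2. Of all genes tested, 34.6% were highest in library 3 of that group and 33.2% lowest in its library 2. The order was not particular to the family. Among other myeloid receptor genes, Pirb (59.6, 54.3 and 75.6 FPKM in knockout-labelled libraries 1, 2 and 3) had it too. So did Fcgr3 (322, 302 and 392 FPKM), while Fcer1g (235, 241 and 228 FPKM) and Sirpa (423, 435 and 450 FPKM) did not. Without library 3, limma gave all 6 members a log2 fold change below 0 and 3 of them, Cd300a (-0.25), Cd300ld (-0.34) and Cd300lb (-0.23), an unadjusted p below 0.05. None of them was called (adjusted p from 0.272 to 0.386), and 12.5% of all genes had such a p in that fit. Library 3 of the knockout-labelled group also held the lowest adipocyte sum, 3.62 FPKM, and the part of this in the members' values was not tested.

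The balance of activating over inhibitory members was then compared. The summed FPKM of Cd300c2, Cd300ld, Cd300lb and Cd300e was 22.6, 24.8 and 22.2 times that of Cd300a and Cd300lf in the knockout-labelled libraries, against 22.9, 26.2 and 21.3 times in wild type. Means were 23.2 ± 1.37 in knockout-labelled and 23.5 ± 2.51 in wild type libraries (SD, n = 3 each), the groups overlapped, and the quotient of the means was 0.988. No test was made of a score over chosen members. Inhibitory members thus made up 4.14% ± 0.228 of the sum in the knockout-labelled libraries and 4.11% ± 0.408 in wild type (SD, n = 3 each). Cd300a supplied 85.6% of the inhibitory FPKM in knockout-labelled and 84.2% in wild type libraries on average. With only wild type library 3 as reference the quotient was 1.09. Counting the further Cd300 genes as activating gave ratios of 29.7 ± 1.06 in knockout-labelled and 31.0 ± 3.14 in wild type libraries (SD, n = 3 each), a quotient of 0.958.

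The pairs that share a coding run were also set against each other. Cd300c2 stood at 7.54, 8.76 and 8.54 times Cd300a in the knockout-labelled libraries, against 6.85, 8.86 and 7.32 times in wild type. Cd300ld stood at 65.0, 63.6 and 64.5 times Cd300lf in the knockout-labelled libraries, against 72.0, 75.5 and 48.1 times in wild type. The knockout-labelled values of this second ratio lay within a narrow range, which the wild type values bracketed on both sides. How reads of the shared run were assigned is not known, so the Cd300lf level and this ratio are uncertain by an unknown amount.

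**Figure D4:**
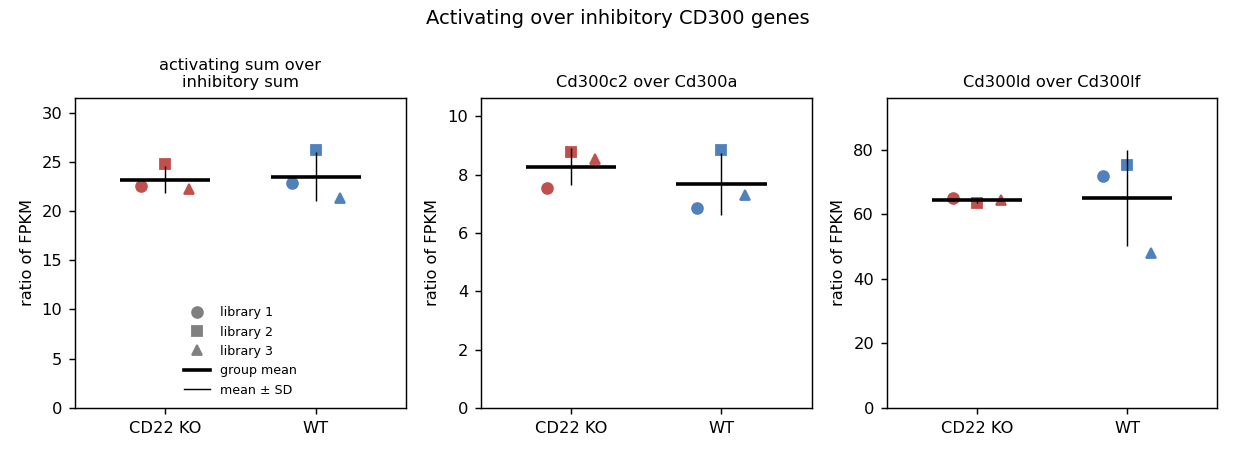
Ratios of FPKM are plotted by library on axes from 0, for the summed activating over the summed inhibitory members, for Cd300c2 over Cd300a and for Cd300ld over Cd300lf; red points on the left are libraries labelled CD22 knockout, blue points on the right wild type, with group mean and SD (n = 3). The groups overlap in each panel, and the wild type libraries spread from 48.1 to 75.5 in the last.

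Promoters of the pair Cd300lf and Cd300ld are shown because these genes share coding sequence and differ 48.1-fold to 75.5-fold in level. RefSeq (GRCm38.p6) promoters, 250 bases before to 50 after the start, were held for 6 of the 7 members (Cd300lg was not matched). The core motif of PU.1, a transcription factor that defines macrophages, GAGGAAGT on either strand, occurred in these 2 alone among the 6, and in 3.20% of 32851 promoters of the same length. Cd300ld3, Cd300ld4 and Cd300ld5 also held it. Without its leading G, the stretch AGGAAGT also occurs in the promoters of Cd300c2 and Cd300e. For this motif, those members therefore lack only the leading G. The full motif is in capitals below. It starts 143 bases before the start site in Cd300ld (chr11:114989837-114990136, minus strand) and at the start site in Cd300lf (chr11:115133943-115134242, minus strand).
Cd300ld promoter: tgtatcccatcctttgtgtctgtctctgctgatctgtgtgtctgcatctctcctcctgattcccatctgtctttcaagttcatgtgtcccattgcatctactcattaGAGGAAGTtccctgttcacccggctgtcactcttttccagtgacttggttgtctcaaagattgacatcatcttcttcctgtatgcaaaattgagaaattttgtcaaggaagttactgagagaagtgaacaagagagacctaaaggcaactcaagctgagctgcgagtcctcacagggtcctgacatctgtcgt
Cd300lf promoter: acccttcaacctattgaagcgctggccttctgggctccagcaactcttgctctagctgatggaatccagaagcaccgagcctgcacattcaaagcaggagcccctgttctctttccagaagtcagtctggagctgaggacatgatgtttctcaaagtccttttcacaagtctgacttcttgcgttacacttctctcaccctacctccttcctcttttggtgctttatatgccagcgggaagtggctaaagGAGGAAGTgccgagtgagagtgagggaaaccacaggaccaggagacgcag

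Other motifs searched on both strands, none of which overlapped the PU.1 core in these promoters, were those of STAT6, the factor activated by IL-4 (TTCNNNNGAA, in 0 of the 6 members and 6.95% of all promoters), STAT factors generally (TTCNNNGAA, in Cd300e and 8.30%), C/EBP (TTGCNNAA, in Cd300a and 10.8%), AP-1 (TGANTCA, in 0 and 7.81%) and the TATA box (TATAAA, in Cd300lb and Cd300lf and 13.6%). No match says only that these letters are not in this window. The promoters of Cd300ld4 and Cd300ld5 were identical over all 300 bases, and that of Cd300ld3 differed from them at 15.

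The 5 further Cd300 genes were lower on average in the knockout-labelled libraries. Cd300ld2 had 1.68, 1.28 and 1.76 FPKM there, against 2.46, 2.48 and 1.99 FPKM in wild type, and the groups did not overlap, which held in that direction for 10.7% of all genes. Its log2 fold change was -0.36 (95% interval -0.59 to -0.13, limma, adjusted p = 0.233). Cd300ld3, Cd300ld4 and Cd300ld5 had log2 fold changes of -0.30, -0.41 and -0.34 (limma, adjusted p from 0.394 to 0.625). Means of Cd300ld3, the most abundant of them, were 99.4 ± 26.0 FPKM in the knockout-labelled libraries and 121 ± 16.9 FPKM in wild type (SD, n = 3 each). Limma called 0 of the 4 tested (0.408% of all genes) and gave 3 an unadjusted p below 0.05 (11.0% of all genes), but the near-identical copies share reads and are not independent of each other. Cd300c was listed at 0, 0.0359 and 0.0859 FPKM in the knockout-labelled libraries, against 0.328, 0.414 and 0.203 FPKM in wild type, under the filter. In the authors' deposited table its q was 0.298.

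**Figure D5:**
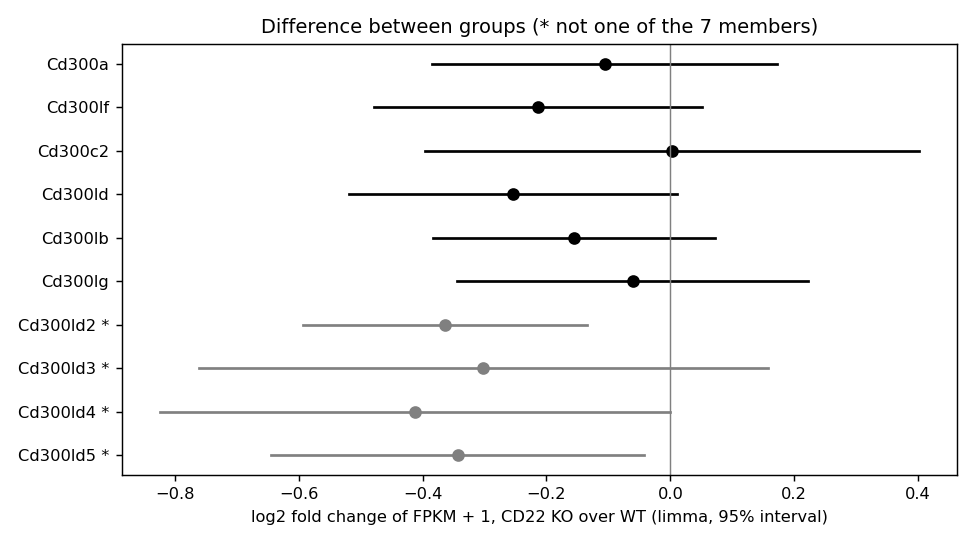
Points give the log2 fold change on the scale log2(FPKM + 1), libraries labelled CD22 knockout over wild type, and lines the 95% interval from limma, for the 10 Cd300 genes that passed the filter; the 6 members among them are in black and the further genes, marked with an asterisk, in grey. Intervals of the members all include 0, with Cd300ld the lowest at -0.25. Of the further genes, Cd300ld2 (-0.59 to -0.13), Cd300ld4 (-0.82 to -0.00028) and Cd300ld5 (-0.64 to -0.042) have intervals below 0. That of Cd300ld3 includes 0, and none of these genes was called.

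Genes around the receptors were taken from 6 lists, which cover signalling partners, exposure of the ligand phosphatidylserine, other receptors for it, the IL-4 receptor and other paired receptors, and 76 of their 86 genes were tested. Limma called 1 of them (0.408% of all genes were called), and 11 had an unadjusted p below 0.05 (11.0% of all genes). Adaptors and activating signalling genes had 0 of 19 called and 2 with an unadjusted p below 0.05, with a median log2 fold change of -0.01. Among them the Src-family kinase gene Fgr was at 10.9 ± 1.53 FPKM in the knockout-labelled libraries and 8.40 ± 0.055 in wild type, and Card9, a signalling scaffold, at 16.4 ± 0.556 FPKM in knockout-labelled and 13.9 ± 0.608 FPKM in wild type libraries (SD, n = 3 each; limma, adjusted p = 0.236 and 0.292). Vav1 was at 37.9 ± 2.94 FPKM in the knockout-labelled libraries and 34.0 ± 0.900 FPKM in wild type. The adaptors themselves, picked for their role after their values were seen, were as abundant as the top receptors. Tyrobp had 288, 263 and 326 FPKM in the knockout-labelled libraries, against 320, 398 and 297 FPKM in wild type (limma, log2 fold change -0.20, adjusted p = 0.586), and Fcer1g had 235, 241 and 228 FPKM in the knockout-labelled libraries, against 217, 244 and 219 FPKM in wild type (0.05, adjusted p = 0.867).

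Inhibitory signalling genes had 0 of 9 called and 1 with an unadjusted p below 0.05 (0.408% and 11.0% of all genes), with a median of 0.02. Sh2d1b1, an adaptor of SLAM receptors, was at 2.63 ± 0.143 FPKM in the knockout-labelled libraries and 3.45 ± 0.646 FPKM in wild type. The adaptor genes Dok1 (24.3 ± 1.12 FPKM in knockout-labelled, 22.4 ± 2.10 in wild type libraries) and Dok2 (55.5 ± 4.57 FPKM in knockout-labelled, 50.4 ± 7.43 in wild type libraries) had overlapping groups. Ptpn6, which encodes SHP-1 and was also picked for its role, was at 66.9 ± 2.67 FPKM in knockout-labelled and 65.9 ± 4.47 FPKM in wild type libraries (SD, n = 3 each). IL-4 receptor genes had 0 of 8 called and 0 with an unadjusted p below 0.05 (0.408% and 11.0% of all genes), with a median of -0.09. Jak1 was at 29.0 ± 1.71 FPKM in the knockout-labelled libraries and 33.1 ± 3.03 FPKM in wild type. Its groups did not overlap, which held in that direction for 10.7% of all genes. Groups of Irs2 (4.85 ± 0.308 FPKM in knockout-labelled, 5.53 ± 0.730 in wild type libraries) and of Stat6 (45.5 ± 2.34 FPKM in knockout-labelled, 50.2 ± 4.06 in wild type libraries) overlapped.

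Genes that expose phosphatidylserine, a CD300 ligand, had 0 of 8 called and 0 with an unadjusted p below 0.05 (0.408% and 11.0% of all genes), with a median of 0.08. The scramblase family gene Plscr3 was at 13.7 ± 0.605 FPKM in the knockout-labelled libraries and 12.3 ± 0.469 FPKM in wild type. Xkr8, a scramblase gene, was at 2.29 ± 0.246 FPKM in knockout-labelled and 1.93 ± 0.167 FPKM in wild type libraries, and Atp11a, a flippase gene, at 9.07 ± 1.05 FPKM in knockout-labelled and 10.3 ± 0.729 FPKM in wild type libraries. Among other receptors and bridges for that lipid, 12 of 18 passed the filter and 1 was called (0.408% of all genes). This was Axl, a receptor kinase for dying cells, with 14.5, 17.1 and 15.7 FPKM in the knockout-labelled libraries, against 8.53, 6.44 and 5.94 FPKM in wild type (limma, log2 fold change 1.08, adjusted p = 0.00365). The groups of Axl did not overlap, as in 17.1% of all genes. With no filter on low values its adjusted p from limma was 0.153, so it was not called there (0.000588 to 0.153 over all alternatives). Mertk, of the same family, was at 14.6 ± 1.16 FPKM in knockout-labelled and 12.8 ± 0.597 FPKM in wild type libraries, and Mfge8, which bridges the lipid to integrins, at 50.3 ± 13.3 FPKM in knockout-labelled and 69.4 ± 16.6 FPKM in wild type libraries (SD, n = 3 each; adjusted p = 0.439 and 0.559). Stab1, a scavenger receptor gene, was at 53.5 ± 11.1 FPKM in knockout-labelled and 44.3 ± 3.85 FPKM in wild type libraries.

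Other paired receptors of myeloid cells had 0 of 20 called and 6 with an unadjusted p below 0.05 (0.408% and 11.0% of all genes), with a median of 0.06. Cd200r4, an activating CD200 receptor relative, had 24.9, 25.2 and 30.5 FPKM in the knockout-labelled libraries, against 33.2, 39.9 and 37.0 FPKM in wild type (limma, log2 fold change -0.44, adjusted p = 0.127). Siglece, an inhibitory sialic acid receptor, was at 10.8 ± 1.76 FPKM in the knockout-labelled libraries and 5.85 ± 1.64 FPKM in wild type (SD, n = 3 each; log2 fold change 0.79, adjusted p = 0.194). Pira2, an activating receptor gene of a multigene family whose copies may share reads, was at 11.1 ± 1.95 FPKM in knockout-labelled and 13.9 ± 0.280 FPKM in wild type libraries. Without knockout-labelled library 3, Cd200r4 (limma, adjusted p = 0.0321) and Fgr (adjusted p = 0.0412) were called as well, and without wild type library 1 Siglece was (adjusted p = 0.0239). Of all 10777 genes tested, 92 were called without knockout-labelled library 3 and 35 without wild type library 1, against 44 in the main fit.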

How the data were processed

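RNA was sequenced from 6 libraries, 3 labelled CD22 knockout and 3 wild type, as stranded poly(A) read pairs per the labels' protocols. FPKM per gene and library were deposited by the authors, with no counts, so depth is unknown and no counting interval was made. The same table holds the authors' fold ratio, its log2, and a p-value and q-value per gene, as deposited. Tools named without roles in the submitters' processing notes are HISAT2, StringTie, cutadapt, FastQC, edgeR and DESeq2, and no genome build for the table is given there. Gene IDs were looked up in GENCODE M21 (GRCm38), which held 31792 of 31883 (99.7%).

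The 10777 genes that reached 1 FPKM in 3 or more libraries were put on the scale log2(FPKM + 1), which understates the change of low genes. Testing used limma 3.58.1 under R 4.3.3 (trend, robust moderation, no covariates, 2-sided), with Benjamini-Hochberg adjustment over all genes tested and a threshold of 0.05. Each library has its own batch code, so batch could not be fitted. Transcript windows of 100 and of 50 bases were matched on the same strand. Python 3.11.15 and Biopython 1.88 were used.

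Members and lists were chosen with earlier results of these data known. The genes named are the members, other Cd300 genes, Cd22, the called genes of each list and the 3 others with the smallest p per list, neighbours of the cluster, and for each member the 2 genes with the most similar profile. Alternatives were quantile normalization, median centring, a pseudocount of 0.1, a minimum of 5 FPKM or none, plain moderation, a replicate block, and libraries left out.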

Additional observations from a re-analysis of the deposited data

How the results depend on the processing

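Under all 14 alternatives to the fit, limma called 0 members. They were quantile normalization, median centring, a pseudocount of 0.1, a minimum of 5 FPKM or none, plain moderation, a replicate block, each library left out, and wild type libraries 1 and 2 left out together. An unadjusted p below 0.05 was less stable. Limma gave 1 member such a p with a minimum of 5 FPKM, with a replicate block, without wild type library 1 and without wild type library 3. Without knockout-labelled library 3 it gave 3. Of all genes, 9.63% to 12.5% had such a p in these fits. The genes called over the whole table numbered 44, and 3 with no filter, 28 to 92 with 1 library left out (28 without knockout-labelled library 2, 92 without knockout-labelled library 3) and 11 without wild type libraries 1 and 2. Pathway genes called numbered 1, and 0 with no filter, where Axl had an adjusted p of 0.153, and 1 to 3 with 1 library left out. The log2 fold change of Cd300a ranged from -0.25 to 0.025 with 1 library left out, that of Cd300c2 from -0.17 to 0.14 and that of Cd300lg from -0.21 to 0.067, so their directions depend on single libraries. Those of Cd300ld (-0.34 to -0.14), Cd300lb (-0.23 to -0.03) and Cd300lf (-0.45 to -0.09) kept their sign in all fits that held them. The quotient of activating over inhibitory ratios ranged from 0.945 to 1.05 with 1 library left out, and was 1.09 without wild type libraries 1 and 2. It was 0.958 with the further Cd300 genes counted as activating, and 1.05 from the mean of log2(FPKM + 1) per kind. The cause of these shifts was not tested. Replicate numbers are not shown to pair the libraries: deviations of same-numbered libraries correlated at 0.056, -0.034 and 0.070, and 4 of 6 libraries correlated best with their own number. With a replicate block, 63 genes were called, of which 0 were members. Depth is unknown, so what low members such as Cd300e can show is not known either.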

Other observations

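The genes beside the cluster were called in 0 cases by limma (0.408% of all genes were called). Of its 7 neighbours and overlapping genes, 4 passed the filter and 1 had an unadjusted p below 0.05 (11.0% of all genes). Slc9a3r1, which encodes a scaffold under the membrane, had 44.0, 37.7 and 37.2 FPKM in the libraries labelled CD22 knockout, against 50.4, 47.0 and 44.6 FPKM in wild type, without overlap (log2 fold change -0.25, limma, adjusted p = 0.337). Nat9 (11.3 ± 0.509 FPKM in knockout-labelled, 11.5 ± 1.32 in wild type libraries), Tmem104 (36.1 ± 3.26 FPKM in knockout-labelled, 37.7 ± 4.02 in wild type libraries) and Gprc5c (1.91 ± 0.456 FPKM in knockout-labelled, 1.90 ± 0.561 in wild type libraries) had overlapping groups (SD, n = 3 each).

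Genes outside the family with the most similar pattern to each member were ranked by the root mean square difference of profiles over the 6 libraries, each profile set to mean 0 and SD 1. The nearest to Cd300ld were Anxa1, the gene of annexin A1, at 0.106, and Dnajc12, a co-chaperone gene, at 0.139, where the median over all genes tested was 1.23. Anxa1 had 639, 636 and 801 FPKM in the knockout-labelled libraries, against 778, 1044 and 759 FPKM in wild type. The nearest were Zfat (0.0922) and Cdkn2aip (0.180) for Cd300a, Gm43587 (0.101) and Mrgpre (0.159) for Cd300lf, and Zcchc14 (0.172) and Hsd3b7 (0.175) for Cd300c2. For Cd300lb they were Cdk5 (0.108) and Ndufb11 (0.119), and for Cd300lg Galnt1 (0.149) and Gm17655 (0.153). Among 10777 genes and 6 libraries some profiles lie close to any member, and this is a description only. Within the family, Cd300ld4 and Cd300ld5, whose transcripts share most windows, were nearest at 0.0603, and among the members Cd300ld and Cd300lb at 0.314.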
